A study of Rattus norvegicus with 18 samples.

Results

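The miR-16 family of microRNAs (miRNAs), with its X-linked relatives miR-322 and miR-503, was followed in the ageing gastrocnemius muscle of the rat. Its 7 members, taken by name from the 909 entries of the deposited count table, were rno-miR-15b-5p, rno-miR-16-5p, rno-miR-195-5p, rno-miR-497-5p, rno-miR-322-5p, rno-miR-322-3p and rno-miR-503-5p. Small RNA was sequenced from 18 male Brown Norway rats, 1 library for each rat. Young AL rats were fed ad libitum (AL) and killed at 6 months of age, old AL rats were fed ad libitum up to 28 months, and old CR rats were killed at 28 months after caloric restriction (CR) from the age of 2 months at 55% of the ad libitum intake. Each group held 6 rats, with replicates 1 to 6 for young AL, 7 to 12 for old AL and 13 to 18 for old CR. None of the labels give a genetic modification or a drug, and all rats were single-housed once diets were assigned. The study asked which miRNAs change with age in muscle and how far CR turns those changes back. Only young rats fed ad libitum were sequenced, so the effect of CR was measured within old rats alone.

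A miRNA guides the silencing complex to messenger RNAs that pair with its seed, the stretch near its 5′ end. The miRNAs of this family are known brakes of the cell cycle, and their targets include D-type and E-type cyclins, Cdk6, Cdc25a, Wee1 and Chek1, as well as the survival factor Bcl2. In muscle, miR-195 and miR-497 have been linked to the quiescence of satellite cells, the stem cells of muscle, and miR-322 and miR-503 to the exit of myoblasts from the cell cycle during differentiation through Cdc25a. Whole muscle is mostly post-mitotic fibres with blood vessels, connective tissue, blood and few satellite cells, so fewer cells of a type and less RNA per cell cannot be told apart in these libraries.

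The mature sequences are shown because the seed decides which members can pair with the same messenger RNAs. They come from RefSeq, with positions on the GRCr8 assembly, run from 5′ to 3′, and carry the seed (bases 2 to 8) in capitals.
rno-miR-15b-5p: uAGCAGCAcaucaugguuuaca
rno-miR-16-5p: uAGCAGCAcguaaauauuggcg
rno-miR-195-5p: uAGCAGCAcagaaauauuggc
rno-miR-497-5p: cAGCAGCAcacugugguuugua
rno-miR-322-5p: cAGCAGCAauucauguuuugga
rno-miR-503-5p: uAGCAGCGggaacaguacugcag
rno-miR-322-3p: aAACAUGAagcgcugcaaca
The first 5 share 1 seed, rno-miR-503-5p differs from them in the last base of the seed, and rno-miR-322-3p, the opposite arm of the miR-322 hairpin, has a seed of its own. No other entry among the 686 that matched a RefSeq mature sequence held any of these 3 seeds. Entries without a match, rno-miR-15a-5p among them, could not be checked and are not part of the seed sum below. Outside the seed the members fell into closer and looser pairs. rno-miR-16-5p and rno-miR-195-5p were identical at 19 of 21 positions although they lie on different chromosomes, whereas the neighbours rno-miR-15b-5p and rno-miR-16-5p were identical at 14 of 22. The sources used here do not say how reads that could belong to both of such a close pair were shared out.

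The members come from 3 short clusters, so that neighbours can be cut from 1 transcript. rno-miR-15b-5p (chr2:155555197-155555218, plus strand) and rno-miR-16-5p (chr2:155555343-155555364, plus strand) lie within Smc4, a condensin gene, with 70 bases between their hairpins (the Mir15b hairpin being measured from the outer ends of its mature arms). In mouse and human, miR-16 is also made from a further gene beside miR-15a, and the mature sequence does not tell the loci apart. rno-miR-497-5p (chr10:55450172-55450193, plus strand) and rno-miR-195-5p (chr10:55450509-55450529, plus strand) belong to hairpins 255 bases apart that overlap no other annotated gene. rno-miR-503-5p (chrX:137725899-137725921, minus strand), rno-miR-322-3p (chrX:137726162-137726181, minus strand) and rno-miR-322-5p (chrX:137726198-137726219, minus strand) come from hairpins 220 bases apart within LOC102550366, in an X-linked cluster that also holds the miR-351, miR-542 and miR-450 hairpins.

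All 7 members were counted in every library. The counts of a library totalled 34940346 to 83110905, of which the miR-1 family of muscle took 60.7 to 86.8%. Levels are therefore given as CPM, the share of a library scaled to a common size with TMM factors, and the factors spanned 0.639 to 2.14. The striated muscle miRNAs (miR-1, miR-133a, miR-133b, miR-206, miR-208b and miR-499), which define the labelled tissue, summed to 70542 CPM or more in each library. Of the miR-1 family this list holds rno-miR-1-3p alone and leaves out rno-miR-1b and rno-miR-3571, so its sum lies far below the family share above. The blood and vessel lists were present too, at 3.29 to 11.7 CPM for the 3 erythroid entries, 97.4 to 525 CPM for the 4 leukocyte entries and 3831 to 8098 CPM for the 2 endothelial entries, and no listed marker was at 0 in any library. Old AL replicate 8 stood apart in the leukocyte list, with 525 CPM against 104.5 to 156 CPM in the other old AL libraries. Fold changes without it are given below for the members it moved most.

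The levels spanned a wide range. Over the 18 libraries rno-miR-16-5p averaged 171 CPM and ranked 66th among known miRNAs, followed by rno-miR-195-5p with 112 CPM (75th) and rno-miR-497-5p with 19.4 CPM (143rd). rno-miR-322-3p averaged 16.2 CPM, rno-miR-322-5p 8.74 CPM, rno-miR-15b-5p 4.41 CPM and rno-miR-503-5p, the least counted, 3.17 CPM with 109 to 330 counts in a library. The order was firm between most neighbours. rno-miR-16-5p exceeded rno-miR-195-5p in 18 of 18 libraries, though only by 1.02-fold in the closest one, and rno-miR-195-5p exceeded rno-miR-497-5p in 18 of 18 by 4.60-fold to 7.93-fold. rno-miR-322-3p exceeded rno-miR-322-5p in 18 of 18. By contrast, rno-miR-497-5p exceeded rno-miR-322-3p in 10 of 18 libraries and rno-miR-15b-5p exceeded rno-miR-503-5p in 12 of 18, so the levels of these neighbours overlapped. Adapter ligation favours some sequences over others, which limits any comparison of levels between different miRNAs but not of 1 miRNA between groups.

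**Figure D1:**
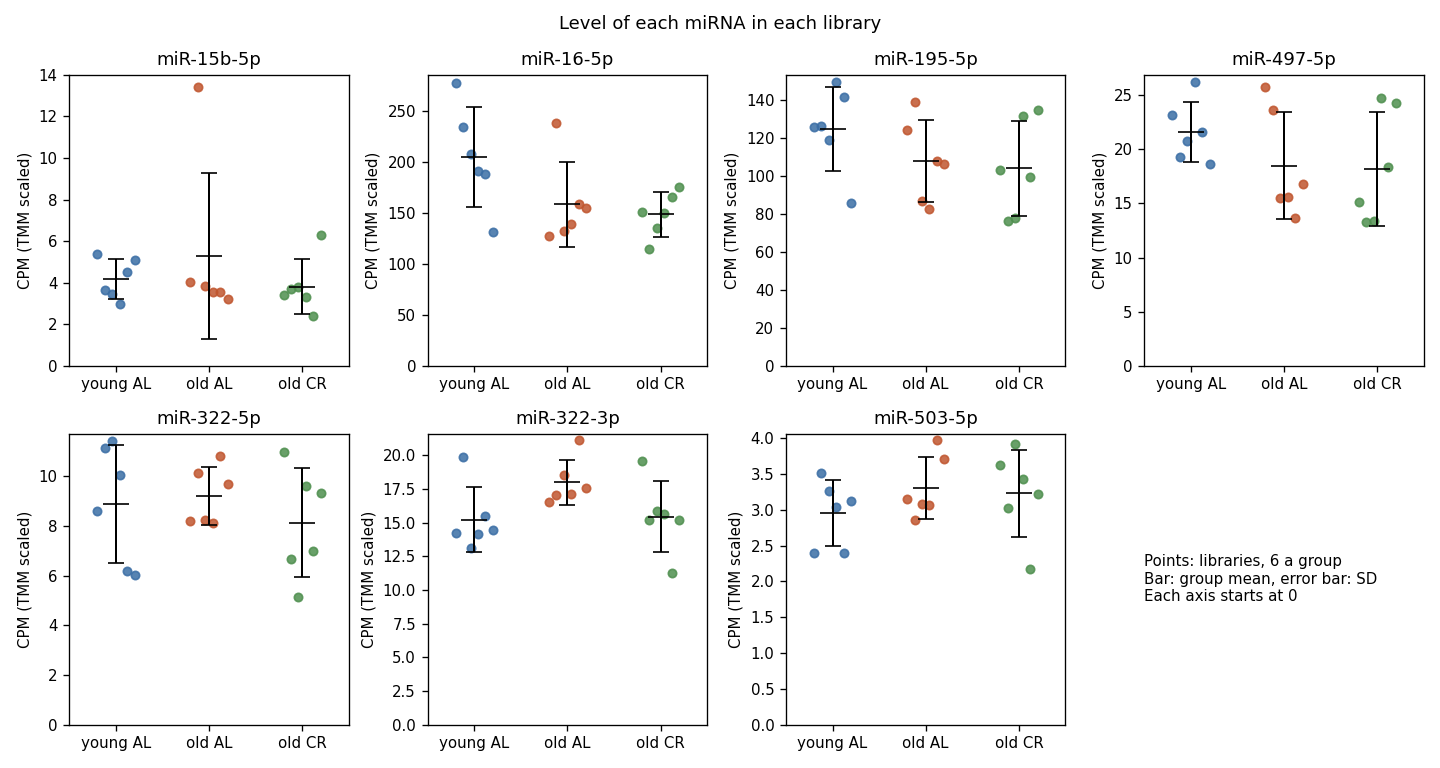
Level of each of the 7 miRNAs (y axis, TMM-scaled CPM from 0) in each library of young AL, old AL and old CR (6 points a group), with the group mean and SD as bars. The groups overlap in every panel, and old AL replicate 8 stands at 13.4 CPM for rno-miR-15b-5p, above the other 17 libraries.

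None of the 7 members was called differentially expressed, which required both an adjusted p no greater than 0.05 and a change of 1.5-fold or more, in any comparison. In old AL against young AL, edgeR's quasi-likelihood test called 0 of 7, where 3.28% of all entries tested were called, and 0 of 7 had an unadjusted p under 0.05 (23.4% of all entries). In old CR against young AL it called 0 of 7 against a background of 9.32%, with 1 of 7, rno-miR-16-5p, at an unadjusted p under 0.05 (25.5% of all entries). In old CR against old AL it called 0 of 7 against a background of 0.272%, with 0 of 7 at an unadjusted p under 0.05 (12% of all entries). DESeq2 also called 0 of 7 in each comparison, where it called 12.2%, 15.8% and 2.73% of its entries. The groups of libraries were never fully apart either, as the CPM ranges of the groups compared overlapped for all 7 members, where 3.55%, 5.75% and 0.543% of all entries had separate ranges in the 3 comparisons. In old AL against young AL 4 of 7 members were on the higher side (56.6% of all entries), in old CR against young AL 2 of 7 (55.8%) and in old CR against old AL 0 of 7 (50.7%). The last count rested on old AL replicate 8, without which 4 of 7 members were on the higher side, and the values of rno-miR-497-5p (-0.01), rno-miR-503-5p (-0.02) and rno-miR-195-5p (-0.04) in that comparison were close to 0.

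The intervals show how large a change could have been missed. The 95% interval of the fold change lay wholly within 1.5-fold in either direction for 4 of 7 members in old AL against young AL, for 2 of 7 in old CR against young AL and for 5 of 7 in old CR against old AL. Among all entries tested the corresponding shares were 10.8%, 13.2% and 13.9%. The median size of the log2 fold change over the members was 0.24, 0.13 and 0.08 in the 3 comparisons, beside 0.43, 0.41 and 0.35 over all entries. Many of those entries were counted far less deeply than the members, which bears on the width of their intervals. The median signed log2 fold change was 0.05, -0.13 and -0.08 over the members and 0.06, 0.08 and 0.01 over all entries.

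**Figure D2:**
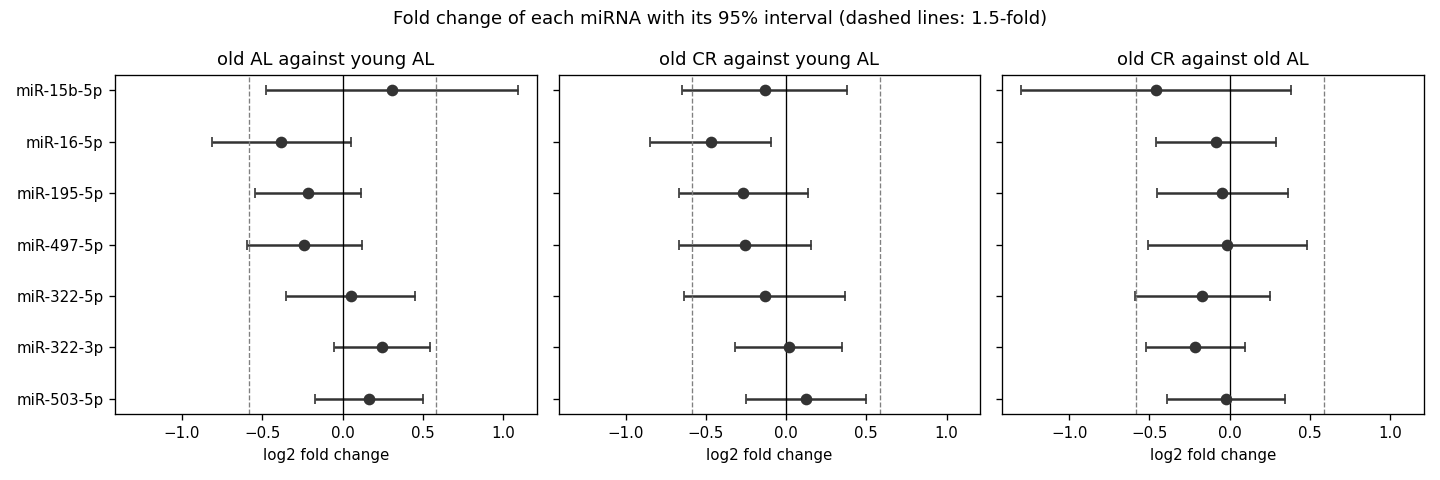
Log2 fold change (x axis) of each of the 7 miRNAs with its 95% interval in old AL against young AL, old CR against young AL and old CR against old AL, with dashed lines at 1.5-fold. Of the 21 intervals, that of rno-miR-16-5p in old CR against young AL leaves out 0, at -0.85 to -0.09, and the intervals of rno-miR-15b-5p in the comparisons that involve old AL are the widest.

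rno-miR-16-5p, the most abundant member and a repressor of cyclins D1 and E1, had the lowest p of the family. It ranged from 131 to 278 CPM in young AL (median 199.7), from 127 to 239 CPM in old AL (median 147) and from 115 to 176 CPM in old CR (median 150.5). In young AL, 5 of 6 libraries lay above all 6 old CR libraries, and 1, replicate 6 at 131 CPM, lay among them. In old AL, 5 of 6 libraries were below the young median and the sixth, replicate 8 at 239 CPM, was not. The mean of 6 libraries (± SD) was 205 ± 49.2 CPM for the young rats, 158 ± 41.4 CPM for old AL and 149 ± 21.8 CPM for old CR. The log2 fold change was -0.38 ± 0.20 (SE) in old AL against young AL (edgeR, adjusted p = 0.269), -0.47 ± 0.17 in old CR against young AL (unadjusted p = 0.0191, adjusted p = 0.109) and -0.08 ± 0.17 in old CR against old AL (adjusted p = 0.914). Neither comparison with young AL passed the threshold.

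Single libraries moved the rno-miR-16-5p estimate. Without young AL replicate 6 the log2 fold change in old CR against young AL was -0.57 with an adjusted p of 0.0372, still short of the fold threshold. Without old AL replicate 8 the log2 change of old AL from young AL was -0.52 (adjusted p = 0.140), and that of old CR from old AL turned from -0.08 to 0.07 (adjusted p = 0.884). Young AL replicates 1 and 2, whose numbers in the sample descriptions stand outside the run of the others, held the highest rno-miR-16-5p levels of young AL (278 and 234 CPM). Without both, the log2 fold change was -0.17 in old AL against young AL (adjusted p = 0.684) and -0.24 in old CR against young AL (adjusted p = 0.453). Whether these numbers mark a batch is not stated in the sources used here. The direction was lower in 25 of 25 alternative settings in each of these comparisons.

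rno-miR-16-5p is abundant in red blood cells, so the erythroid list (miR-451-5p and both arms of miR-144) was read beside it. It summed to 3.29 to 10.1 CPM in young AL (median 6.84), 6.50 to 11.7 CPM in old AL (median 8.20) and 3.48 to 9.50 CPM in old CR (median 5.73). In young AL replicate 1, the library with the highest rno-miR-16-5p level, the erythroid sum was 3.29 CPM, the lowest of the 18. In old AL replicate 8 both were the highest of the group. The part of red blood cells in the rno-miR-16-5p level was not tested. A predicted candidate of the table had counts within 10% of those of rno-miR-16-5p in 18 of 18 libraries (188887 against 191849 in total), so its fold changes are not evidence apart from those of rno-miR-16-5p.

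rno-miR-195-5p and rno-miR-497-5p, the pair tied to satellite cell quiescence, were both on the lower side in both old groups against young AL. rno-miR-195-5p ranged from 85.9 to 149.8 CPM in young AL (median 126), from 82.9 to 139 CPM in old AL (median 107) and from 76.5 to 135 CPM in old CR (median 102). The ranges of the groups overlapped almost wholly. rno-miR-497-5p ranged from 18.7 to 26.2 CPM in young AL (median 21.2), from 13.6 to 25.8 CPM in old AL (median 16.2) and from 13.3 to 24.8 CPM in old CR (median 16.7). Of the old AL libraries 4 of 6, and of the old CR libraries 4 of 6, lay under every young AL library, while the others reached up into the young range. The SD of rno-miR-497-5p was 2.77 CPM for the young rats, 4.95 CPM for old AL and 5.24 CPM for old CR. Whether this spread differed between groups was not tested.

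Neither miRNA of the pair passed the test. The log2 fold change of rno-miR-195-5p was -0.21 ± 0.15 in old AL against young AL (SE, adjusted p = 0.431), -0.27 ± 0.18 in old CR against young AL (adjusted p = 0.429) and -0.04 ± 0.19 in old CR against old AL (adjusted p = 0.978, edgeR for all). For rno-miR-497-5p it was -0.24 ± 0.16 (adjusted p = 0.413), -0.26 ± 0.19 (adjusted p = 0.464) and -0.01 ± 0.23 (adjusted p = 0.998) in the same order. Without old AL replicate 8 the values in old CR against old AL turned to 0.04 for rno-miR-195-5p (adjusted p = 0.963) and 0.07 for rno-miR-497-5p (adjusted p = 0.951). Both comparisons with young AL use the same young libraries, so their like values are not separate evidence. With library totals in place of TMM factors the old AL values moved to 0.01 for rno-miR-195-5p and 0.05 for rno-miR-497-5p, a setting that also raised the median of all entries by 0.17. Relative to that median they remained lower, by -0.22 and -0.18 on the log2 scale.

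The 3 members from the X-linked cluster were on the higher side in old AL against young AL, with log2 fold changes of 0.24 for rno-miR-322-3p, 0.17 for rno-miR-503-5p and 0.05 for rno-miR-322-5p. The value of rno-miR-322-5p was no higher than the median of all entries, 0.06, and rno-miR-322-3p does not carry the shared seed. rno-miR-322-3p ranged from 13.1 to 19.9 CPM in young AL (median 14.4), from 16.5 to 21.1 CPM in old AL (median 17.4) and from 11.2 to 19.6 CPM in old CR (median 15.4). In young AL 5 of 6 libraries, and in old CR 5 of 6, lay below all 6 old AL libraries, with young AL replicate 2 (19.9 CPM) and old CR replicate 13 (19.6 CPM) as the exceptions. The mean of 6 libraries (± SD) was 15.2 ± 2.41 CPM for the young rats, 18.0 ± 1.68 CPM for old AL and 15.5 ± 2.65 CPM for old CR. The log2 fold change was 0.24 ± 0.14 (SE) in old AL against young AL (edgeR, adjusted p = 0.299), 0.02 ± 0.15 in old CR against young AL (adjusted p = 0.977, and -0.12 with library totals in place of TMM factors) and -0.21 ± 0.14 in old CR against old AL (adjusted p = 0.557). The pattern of a higher level in old AL alone therefore did not pass the test in any comparison. In old CR against young AL, library totals also shifted the median of all entries by -0.13. Relative to the median of each setting, rno-miR-322-3p stood at -0.06 with TMM factors and at -0.06 with library totals.

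rno-miR-322-5p, which carries the shared seed, did not show that pattern. It ranged from 6.03 to 11.4 CPM in young AL (median 9.32), from 8.11 to 10.8 CPM in old AL (median 8.95) and from 5.14 to 11.0 CPM in old CR (median 8.16). The old AL libraries lay within the range of both other groups. Its log2 fold change was 0.05 ± 0.18 in old AL against young AL (SE, adjusted p = 0.923), -0.13 ± 0.23 in old CR against young AL (adjusted p = 0.803) and -0.17 ± 0.19 in old CR against old AL (adjusted p = 0.804, edgeR for all).

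rno-miR-503-5p, a repressor of Cdc25a and cyclin D1 made from the neighbouring hairpin, ranged from 2.40 to 3.51 CPM in young AL (median 3.09), from 2.86 to 3.98 CPM in old AL (median 3.11) and from 2.18 to 3.92 CPM in old CR (median 3.33). The groups overlapped and their medians were close. The log2 fold change was 0.17 ± 0.15 in old AL against young AL (SE, adjusted p = 0.587), 0.13 ± 0.17 in old CR against young AL (adjusted p = 0.751) and -0.02 ± 0.17 in old CR against old AL (adjusted p = 0.993, edgeR for all). Its 95% intervals lay within 1.5-fold in all 3 comparisons.

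rno-miR-15b-5p, which silences Bcl2 and cyclins together with miR-16, had the widest spread of the family, most of it from 1 library. It ranged from 2.95 to 5.38 CPM in young AL (median 4.07), from 3.22 to 13.4 CPM in old AL (median 3.69) and from 2.40 to 6.31 CPM in old CR (median 3.54). The 13.4 CPM was old AL replicate 8, and the other 5 old AL libraries lay between 3.22 and 4.04 CPM. With it the old AL mean was 5.26 ± 3.99 CPM, and without it 3.64 ± 0.312 CPM (SD, n = 5). The log2 fold change was 0.31 ± 0.36 in old AL against young AL (SE, adjusted p = 0.693), -0.13 ± 0.24 in old CR against young AL (adjusted p = 0.808) and -0.46 ± 0.38 in old CR against old AL (adjusted p = 0.678, edgeR for all). Without old AL replicate 8 the first turned to -0.20 (adjusted p = 0.601) and the third to 0.07 (adjusted p = 0.930).

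The same library was high in the leukocyte miRNAs. Old AL replicate 8 held 311 CPM of rno-miR-150-5p, a miRNA of mature lymphocytes, and 525 CPM of the leukocyte list. The second highest rno-miR-15b-5p level, 6.31 CPM in old CR replicate 18, also met the second highest leukocyte sum, 206 CPM. There rno-miR-150-5p alone was not high, at 128 CPM beside a mean of 132 CPM over all libraries. Old CR replicate 15, with 168 CPM of rno-miR-150-5p and a leukocyte sum of 174 CPM, held 3.77 CPM of rno-miR-15b-5p. The part of leukocytes in the rno-miR-15b-5p level was not tested.

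Summed over the 5 members with the shared seed, most of the counts fell on 2 miRNAs. Adapter ligation, and the unknown sharing of reads between rno-miR-16-5p and rno-miR-195-5p, limit how far these shares stand for amounts. rno-miR-16-5p gave 55.9 ± 4.86% of the seed-sharing counts for the young rats, 52.7 ± 4.53% for old AL and 52.9 ± 3.90% for old CR (SD, n = 6 each). rno-miR-195-5p gave 34.5 ± 4.22%, 36.3 ± 3.70% and 36.5 ± 2.98%. The other 3 were minor, with 6.05 to 6.35% for rno-miR-497-5p, 2.45 to 3.13% for rno-miR-322-5p and 1.19 to 1.64% for rno-miR-15b-5p as group means. The seed sum ranged from 247 to 441 CPM in young AL (median 372), from 247 to 425 CPM in old AL (median 290.2) and from 215 to 351 CPM in old CR (median 289). In young AL replicate 6 (247 CPM) and old AL replicate 8 (425 CPM) the sum departed from the rest of their groups, and these are given as a description without a test.

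**Figure D3:**
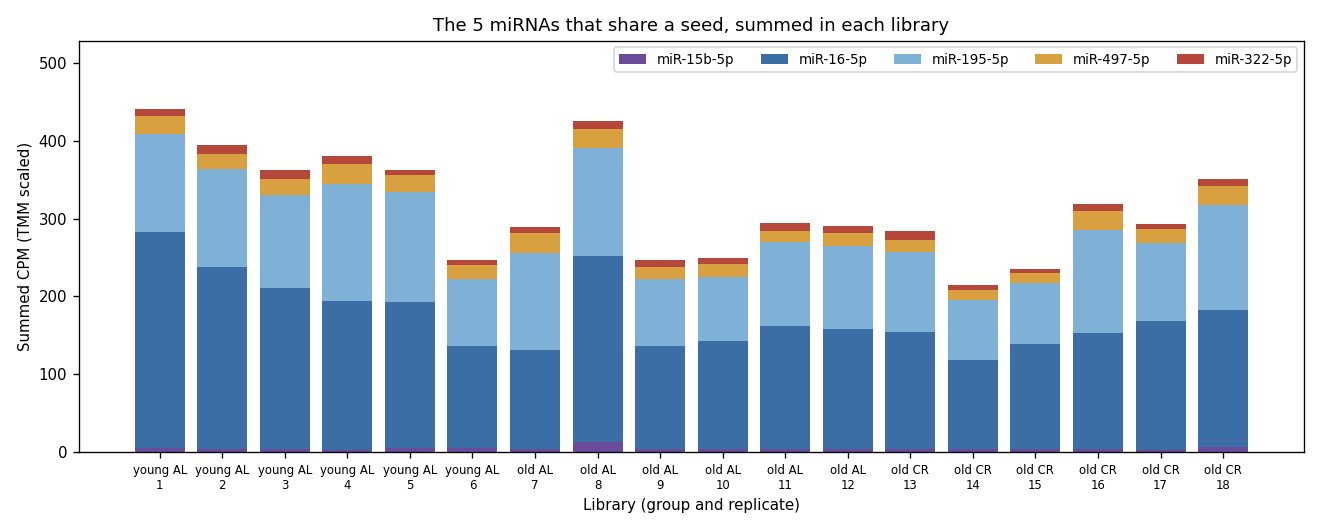
Summed level (y axis, TMM-scaled CPM) of the 5 miRNAs that share a seed in each of the 18 libraries, with each bar divided by miRNA. The rno-miR-16-5p and rno-miR-195-5p segments make up most of every bar, and the bars of young AL replicates 1 to 5 (362 to 441 CPM) are matched among the old rats by old AL replicate 8 (425 CPM) alone.

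Ratios within a library do not depend on its scaling, and they ask whether arms or neighbours changed their balance. The ratio of rno-miR-322-5p to rno-miR-322-3p, the arms of 1 hairpin, was 0.593 ± 0.179 for the young rats, 0.512 ± 0.0539 for old AL and 0.530 ± 0.122 for old CR (SD, n = 6 each). The ratio of rno-miR-195-5p to rno-miR-497-5p was 5.76 ± 0.735, 5.99 ± 1.08 and 5.80 ± 0.556, nearly level across groups. The ratio of rno-miR-15b-5p to rno-miR-16-5p was 0.0216 ± 0.00896, 0.0310 ± 0.0130 and 0.0259 ± 0.00773. The ratio of rno-miR-322-5p to rno-miR-503-5p was 3.00 ± 0.635, 2.79 ± 0.367 and 2.57 ± 0.705. Groups overlapped for all 4 ratios in all 3 comparisons.

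No ratio passed the test in any comparison, which does not show that the ratios were equal. Across the 12 tests (4 pairs in 3 comparisons) the exact two-sided permutation test over all arrangements of 6 against 6 libraries gave an adjusted p of 0.924 throughout, where the smallest unadjusted p it allows is 0.00216. The lowest unadjusted p was 0.110 for rno-miR-15b-5p to rno-miR-16-5p in old AL against young AL, a ratio 1.43-fold higher in old AL (exact permutation test). Without old AL replicate 8 the log2 difference of that ratio went from 0.52 to 0.33 (exact permutation p = 0.221), and without young AL replicate 6 it went to 0.70 (exact permutation p = 0.0130, adjusted p = 0.156). For rno-miR-195-5p to rno-miR-497-5p the group means of the log2 ratio differed by 0.05 at most in size.

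**Figure D4:**
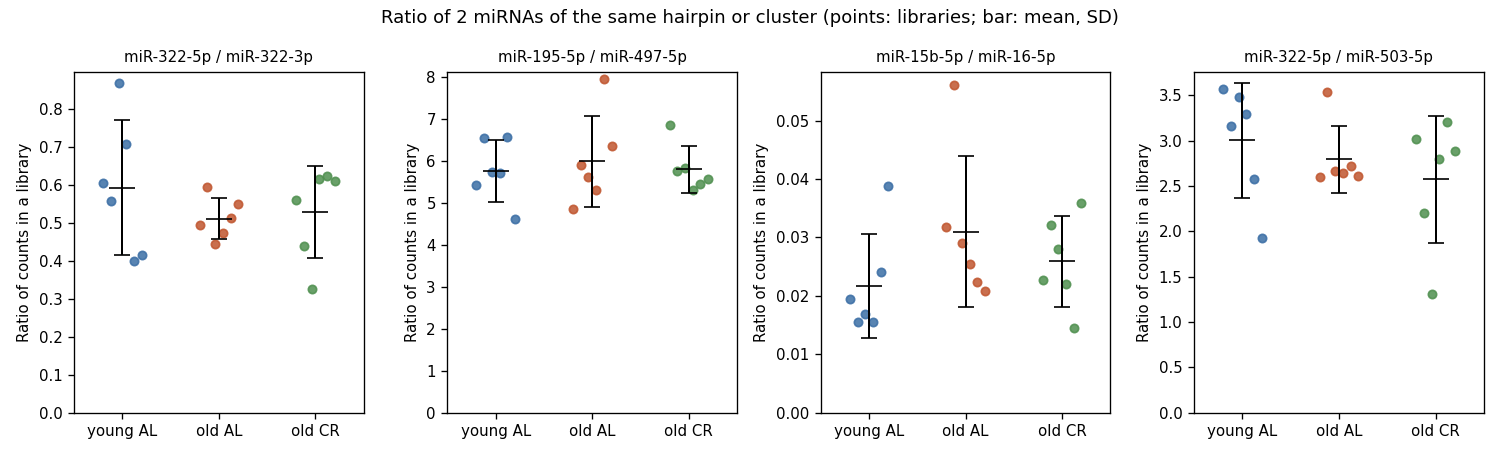
Ratio of raw counts within a library (y axis, from 0) for 4 pairs of miRNAs of 1 hairpin or cluster, by library in young AL, old AL and old CR, with mean and SD. All groups overlap, and the rno-miR-195-5p to rno-miR-497-5p ratio stays between 4.60 and 7.93 in all 18 libraries.

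The share of a hairpin's counts on each arm differed between hairpins. The 5p arm held 75.1 to 91.1% of the counts of miR-15b, 99.7 to 99.9% of miR-16, 81.5 to 92.3% of miR-195 and at least 99.7% of miR-497 over the 18 libraries. The 5p arm of miR-322 held 24.5 to 46.5% and was the smaller arm in 18 of 18 libraries, with group means of 36.6% for the young rats, 33.8% for old AL and 34.2% for old CR, and the 5p arm of miR-503 held 27.2 to 54.3% and exceeded the 3p arm in 2 of 18. The member with the shared seed was thus the less counted arm of the miR-322 hairpin.

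The other arms of the same hairpins and the further miRNAs of the X-linked cluster, 13 entries in all, gave 0 calls in each comparison by edgeR. Of these, 12 were tested in old AL against young AL, 12 in old CR against young AL and 13 in old CR against old AL, and 8, 2 and 5 were on the higher side. At an unadjusted p under 0.05 there were 1, 0 and 2, beside background shares of 23.4%, 25.5% and 12% of all entries. rno-miR-542-5p was the one in old AL against young AL, with 0.318 ± 0.142 CPM for the young rats against 0.161 ± 0.0444 CPM for old AL (log2 fold change -0.996 ± 0.36, adjusted p = 0.142), on 4 to 41 counts in a library. It stood at 0.277 ± 0.117 CPM in old CR (log2 fold change 0.78 ± 0.33 against old AL, adjusted p = 0.392), and the second entry there was rno-miR-450b-3p (-0.58 ± 0.25, adjusted p = 0.392). The more abundant cluster members rno-miR-351-5p (30.7 CPM in old AL) and rno-miR-450a-5p (28.1 CPM) had log2 fold changes of 0.07 and -0.24 in old AL against young AL. rno-miR-15a-5p, the paralogue of miR-15b, was named only after its counts were seen, and with 4 to 20 counts in a library its log2 fold change in old CR against young AL was -0.62 ± 0.31 (edgeR, adjusted p = 0.219).

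The members did not vary together as a block across the 18 libraries. As a measure of likeness, the log2 CPM of each miRNA was centred on its mean over the libraries and the root mean square (RMS) of the difference between 2 such profiles was taken, so that a small value means a like profile. The closest members were rno-miR-195-5p and rno-miR-497-5p at 0.18, followed by rno-miR-322-3p and rno-miR-503-5p at 0.19 and by rno-miR-16-5p and rno-miR-195-5p at 0.26. The neighbours rno-miR-15b-5p and rno-miR-16-5p were much further apart at 0.50, close to the RMS of rno-miR-15b-5p about its own mean, 0.52. The arms rno-miR-322-5p and rno-miR-322-3p were 0.32 apart. These values share the libraries and their scaling, and they describe these libraries without a test.

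Among 162 other known miRNAs of at least 10 CPM, the profile most like rno-miR-15b-5p was that of the lymphocyte miRNA rno-miR-150-5p (RMS 0.28, own RMS 0.52), then rno-miR-425-5p and rno-miR-146a-5p (0.41 each). Old AL replicate 8 weighs heavily in the first pair, with deviations of 1.72 for rno-miR-15b-5p and 1.31 for rno-miR-150-5p. The likeness without that library was not taken. For rno-miR-195-5p it was rno-miR-126a-3p, a miRNA of endothelial cells (0.17, where its own RMS was 0.31), then rno-miR-27a-3p (0.26) and the smooth muscle miRNA rno-miR-143-3p (0.27). rno-miR-497-5p was also most like rno-miR-126a-3p (0.26, own RMS 0.33), and rno-miR-322-5p was most like the other arm, rno-miR-126a-5p (0.18, own RMS 0.33). The arms of miR-126a did not move together in every library. In young AL replicate 5 rno-miR-126a-3p deviated by 0.59 and rno-miR-126a-5p by -0.40, while in young AL replicate 4 both were higher (0.56 and 0.35). The nearest profiles of rno-miR-16-5p (rno-miR-532-5p, 0.30), rno-miR-322-3p (rno-miR-191a-5p, 0.19) and rno-miR-503-5p (rno-let-7g-5p, 0.21) came little closer than a flat line, from which these members lay 0.34, 0.22 and 0.23 away.

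**Figure D5:**
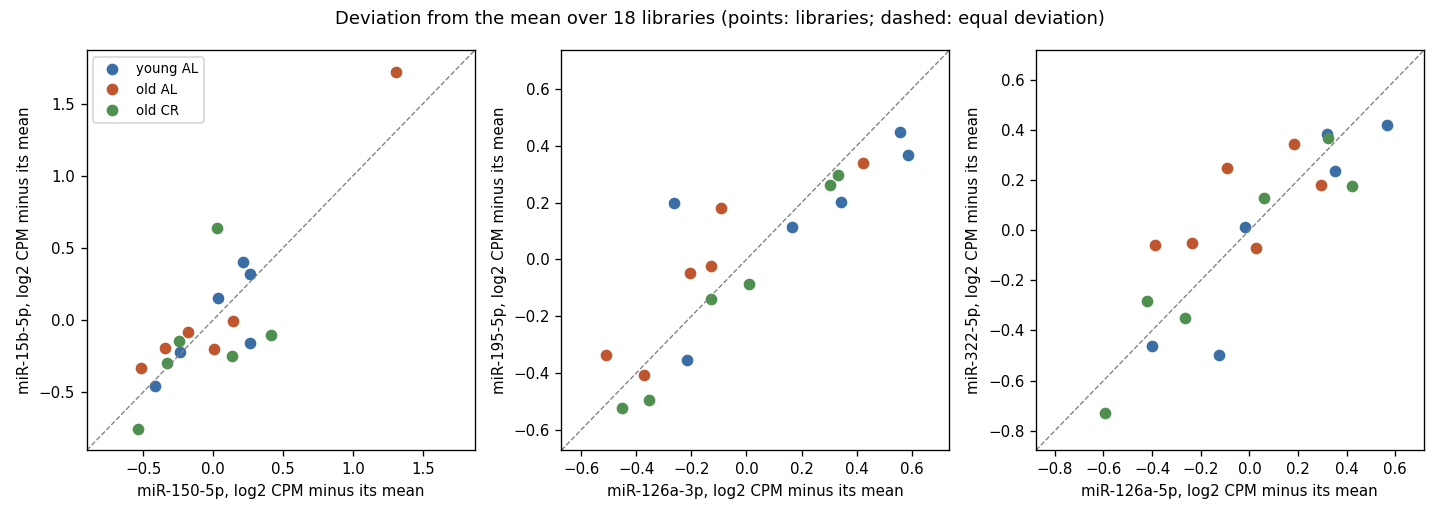
Deviation of the log2 CPM from its mean over 18 libraries for rno-miR-15b-5p against rno-miR-150-5p, rno-miR-195-5p against rno-miR-126a-3p and rno-miR-322-5p against rno-miR-126a-5p (each point 1 library, coloured by group, dashed line for equal deviations). In the first panel old AL replicate 8 lies far from all others, at 1.72 for rno-miR-15b-5p and 1.31 for rno-miR-150-5p.

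The endothelial list, whose 2 entries are the arms of miR-126a named above, and the smooth muscle list were read beside rno-miR-195-5p and rno-miR-497-5p. Of the arms, rno-miR-126a-3p averaged 5506 CPM and rno-miR-126a-5p 88.0 CPM, so the endothelial sum is nearly all rno-miR-126a-3p. The endothelial list summed to 4548 to 8098 CPM in young AL (median 6505), 3831 to 7247 CPM in old AL (median 4873) and 3980 to 6834 CPM in old CR (median 5227), with both listed markers counted in all 18 libraries. Its mean was 5021 CPM in old AL and 5372 CPM in old CR, while the mean of rno-miR-195-5p was 108 and 104 CPM. The smooth muscle list (miR-143-3p and miR-145-5p) had medians of 6869 CPM for the young rats, 7106 CPM for old AL and 6096 CPM for old CR. The highest endothelial sum among old AL (7247 CPM) was in replicate 8 and among old CR (6834 CPM) in replicate 18, the libraries with the highest rno-miR-195-5p in their groups (139 and 135 CPM). In young AL the highest endothelial sum (8098 CPM) was in replicate 5, but the highest rno-miR-195-5p (149.8 CPM) was in replicate 4. Young AL replicate 1 had the lowest endothelial sum of its group (4548 CPM), with rno-miR-195-5p at 126 CPM, near the group median. The part of vessel content in the levels of rno-miR-195-5p and rno-miR-497-5p was not tested.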

How the data were processed

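The authors extracted RNA from gastrocnemius muscle, prepared libraries with the NEBNext small RNA kit, trimmed reads with Cutadapt and Sickle, used miRDeep2 for known miRNAs and candidates, and deposited raw counts per miRNA (763 known, 146 candidates). These are whole-number counts without normalization. The submitters' processing notes list Bowtie2 2.4.0, cutadapt 1.2.1 and Rnor_6.0. Neither the miRBase release nor the treatment of reads with several matches is given in the sources used here. RefSeq sequences (GRCr8) serve display only.

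Members and lists were chosen with earlier results of these data known. Genes named are the 7 members, the other arms and X-linked neighbours, the 3 known miRNAs nearest in profile to each member and entries with shared counts (within 10% or 2 counts). For each comparison, fitted on its own 12 libraries, edgeR 4.0.16 (R 4.3.3, TMM, robust quasi-likelihood test, two-sided) tested entries with at least 10 counts in total, with Benjamini-Hochberg adjustment over all of them. The SE is the log2 fold change divided by the square root of F, and intervals are at 95%. A prior count of 0.5 was used for log2 values and ratios. The tool of the study, DESeq2, was run here in version 1.42.0 as an alternative. Totals over all entries were 34940346 to 83110905 counts a library, without molecular identifiers. They are not numbers of reads, as 43 pairs of entries shared counts and the highest total exceeded every number of mapped reads that the paper lists. Count size bears on counting error only, whereas the SE and intervals also use the spread between libraries of a group. Each column could be tied to a rat, with 0 left unused. The steps were tested on simulated data.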

Additional observations from a re-analysis of the deposited data

Results flagged for a closer look

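In 33 sets of 6 libraries (7 levels and 4 ratios in 3 groups), the highest or lowest library was set apart by Dixon's criterion (gap over range above 0.625) in 8, where about 1 in 20 would be set apart by chance. The ratios reuse the counts of the levels, so the sets were not independent and the 1 in 20 is only a rough guide. Of the 8 set apart, 4 were old AL replicate 8. It had 13.4 CPM of rno-miR-15b-5p (next 4.04), 239 CPM of rno-miR-16-5p (next 159), a ratio of rno-miR-15b-5p to rno-miR-16-5p of 0.0561 (next 0.0318) and a ratio of rno-miR-322-5p to rno-miR-503-5p of 3.54 (next 2.72). Its leukocyte sum of 525 CPM and erythroid sum of 11.7 CPM were the highest of old AL, and their part in these values was not tested.

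In young AL, replicate 2 had 19.9 CPM of rno-miR-322-3p (next 15.5), and replicate 6 had a ratio of rno-miR-15b-5p to rno-miR-16-5p of 0.0387 (next 0.0240). In old CR, replicate 18 had 6.31 CPM of rno-miR-15b-5p (next 3.77), and replicate 13 had a ratio of rno-miR-195-5p to rno-miR-497-5p of 6.86 (next 5.83).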

How the results depend on the processing

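In all 74 alternative settings 0 of 7 members were called. Of 518 member fold changes 490 kept their direction and 28 turned, and of 164 ratio differences 150 kept it and 14 turned, with no call among the member fold changes. In old AL against young AL, library totals gave 0.00843 for rno-miR-195-5p and 0.0526 for rno-miR-497-5p, and filterByExpr gave -0.00163 for rno-miR-322-5p. For rno-miR-322-3p in old CR against young AL, upper-quartile factors gave -0.0619, library totals -0.119, totals without the miR-1 family -0.0503, filterByExpr -0.0547 and no filter -0.0265. The ratio of rno-miR-322-5p to rno-miR-503-5p in old AL against young AL was 0.0158 without young AL replicates 1 and 2. The cause of these turns was not tested.

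Leaving out 1 library at a time gave, in old AL against young AL, -0.197 to 0.414 for rno-miR-15b-5p and -0.0617 to 0.133 for rno-miR-322-5p, and in old CR against young AL -0.0584 to 0.105 for rno-miR-322-3p. In old CR against old AL it gave -0.660 to 0.0744 for rno-miR-15b-5p, -0.146 to 0.0696 for rno-miR-16-5p, -0.131 to 0.0406 for rno-miR-195-5p, -0.130 to 0.0973 for rno-miR-497-5p and -0.0917 to 0.0670 for rno-miR-503-5p. The ratio of rno-miR-195-5p to rno-miR-497-5p ranged from -0.0378 to 0.105 in old AL against young AL, from -0.0491 to 0.0531 in old CR against young AL and from -0.0912 to 0.0516 in old CR against old AL. In the last comparison the ratio of rno-miR-322-5p to rno-miR-322-3p ranged from -0.0357 to 0.153 and that of rno-miR-322-5p to rno-miR-503-5p from -0.245 to 0.0135.

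Calls over all entries moved more. Against 24 in old AL against young AL, library totals gave 0, totals without the miR-1 family 13, DESeq2 84 (99 without its filters), filterByExpr 37, a single fit 38, known miRNAs only 53 and shared entries counted once 6. Against 68 in old CR against young AL, DESeq2 gave 109 (129 without its filters), and against 2 in old CR against old AL it gave 19 (22 without its filters). Leaving out 1 library at a time gave 9 to 20, 45 to 67 and 0 to 3 calls in the 3 comparisons. Library totals shifted the median of all entries by 0.17, -0.13 and -0.28 in the 3 comparisons. No paired analysis was possible because each library came from a different rat and no pairing of rats across groups is given.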

Other observations

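Besides the candidate that matched rno-miR-16-5p, 3 predicted candidates had counts within 10% or 2 counts of a member in each library where they were counted. One matched rno-miR-195-5p in 10 libraries, one matched rno-miR-497-5p in 13 and one matched rno-miR-15b-5p in 2. In the remaining libraries these candidates were listed at 0 while the member was counted, so their fold changes are not read here as changes in level.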
